A study of Mus musculus with 6 samples.

Results

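In mouse stomach, 10 genes of the blood vessel system were examined, namely the vascular endothelial growth factor (VEGF) ligands Vegfa, Vegfb and Vegfc, their receptors Flt1, Kdr and Flt4, the angiopoietin receptor Tek, and the endothelial surface genes Pecam1, Cdh5 and Plvap. They were picked by symbol, and all 10 were found among the 23550 genes of the expression table. RNA from stomach had been sequenced in 6 libraries, 3 from mice given Riclin by gavage at 20 mg per kg and 3 from mice given normal saline by gavage. For saline the treatment label gives the same 20 mg per kg, and treatment lasted 14 days in both groups. Riclin is a bacterial polysaccharide, and the comparison asks what it does to the defence barrier of the gastric mucosa. The labels name no strain, age or sex, and do not say whether these mice received the ethanol that the study used in its injury experiment. Nor do they tie each library to its own animal, and p-values therefore measure only the spread between these libraries, which may be technical.

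VEGF ligands are secreted proteins that bind receptor tyrosine kinases on endothelial cells, the cells that line blood and lymph vessels. VEGF-A acts through KDR to drive vessel growth and leakiness, and FLT1 binds VEGF-A and VEGF-B tightly and can hold VEGF-A away from KDR. VEGF-C acts mainly through FLT4 on lymphatic vessels. In the stomach wall a dense capillary bed runs beneath the epithelium, and the flow through it is part of mucosal defence.

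The whole-stomach libraries held reads implying totals of 30689019 to 39772511. All 10 markers listed for stomach epithelium passed the expression filter, with summed levels of 127219 to 175445 FPKM (fragments scaled by gene length and library size) in Riclin and 119292 to 177387 FPKM in saline. The libraries differed most in pancreatic acinar transcripts. The 24 acinar genes listed took 11.7, 0.0311 and 10.996% of reads in Riclin replicates 2, 3 and 4, and 4.24, 17.1 and 16.2% in saline replicates 1, 2 and 4. Because FPKM is a share of the library, a library with few acinar reads shows every other gene somewhat higher if nothing else differs. The 10 genes and the medians of the gene lists were therefore also compared with acinar genes removed and libraries rescaled to the remaining reads. Each value was divided by the share of reads outside the 24 genes, from 0.829 in saline replicate 2 to 0.9997 in Riclin replicate 3. Other RNA that may come with acinar tissue was not removed. Unless stated otherwise, single genes of the lists, summed levels and cell type markers are given as deposited, without that rescaling.

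None of the 10 genes differed between Riclin and saline past the threshold. Vegfa, Flt1 and Tek lay higher in every Riclin library than in every saline library, by 1.17-fold, 1.25-fold and 1.28-fold in mean FPKM. The lining markers Pecam1 and Cdh5 had mean FPKM ratios of Riclin to saline of 1.02 and 0.959. Of the VEGF ligands among the 10, only Vegfc had a lower mean in Riclin, at a ratio of 0.864. By limma with Benjamini-Hochberg adjustment, adjusted p-values of the 10 genes ran from 0.791 for Tek to 0.971 for Pecam1, and 0 of 10 passed a threshold of 0.05. Of all 11738 tested genes 0% passed. Tek alone had an unadjusted p under 0.05 (0.0311), with Riclin higher, where 5.9% of all tested genes did, 4.07% with Riclin higher. In bulk tissue, a different number of endothelial cells and a different amount of RNA per cell cannot be told apart.

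Levels in FPKM are scaled by gene length, so the order between genes depends on the lengths used, which were not given. For Pecam1 the recovered reads implied 3354 bases against 6228 bases of annotated exons, and for Vegfa 4200 against 4285. Recovered reads can be too low by a common factor, which would lower the implied length too. Plvap and Vegfb were the highest of the 10, at 37.0 to 46.5 and 34.4 to 47.6 FPKM over the 6 libraries, and these neighbours did not differ beyond their spread. Pecam1 followed at 20.2 to 23.2 FPKM, then Vegfa at 12.2 to 15.5, Cdh5 at 7.32 to 10.0 and Kdr at 4.92 to 6.87, in that order in all 6 libraries. Tek, Flt1, Vegfc and Flt4 formed the low end, between 1.01 and 3.78 FPKM, with overlapping ranges between neighbours. Tek was above Flt1 in 6 of 6 libraries, Flt1 above Vegfc in 5 and Vegfc above Flt4 in 5. At these levels the recovered read numbers were 94 to 153 for Vegfc, where counting alone gives an error of about 10.3% at the lowest, and 2422 to 3949 for Plvap, where it gives 2.03%.

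**Figure D1:**
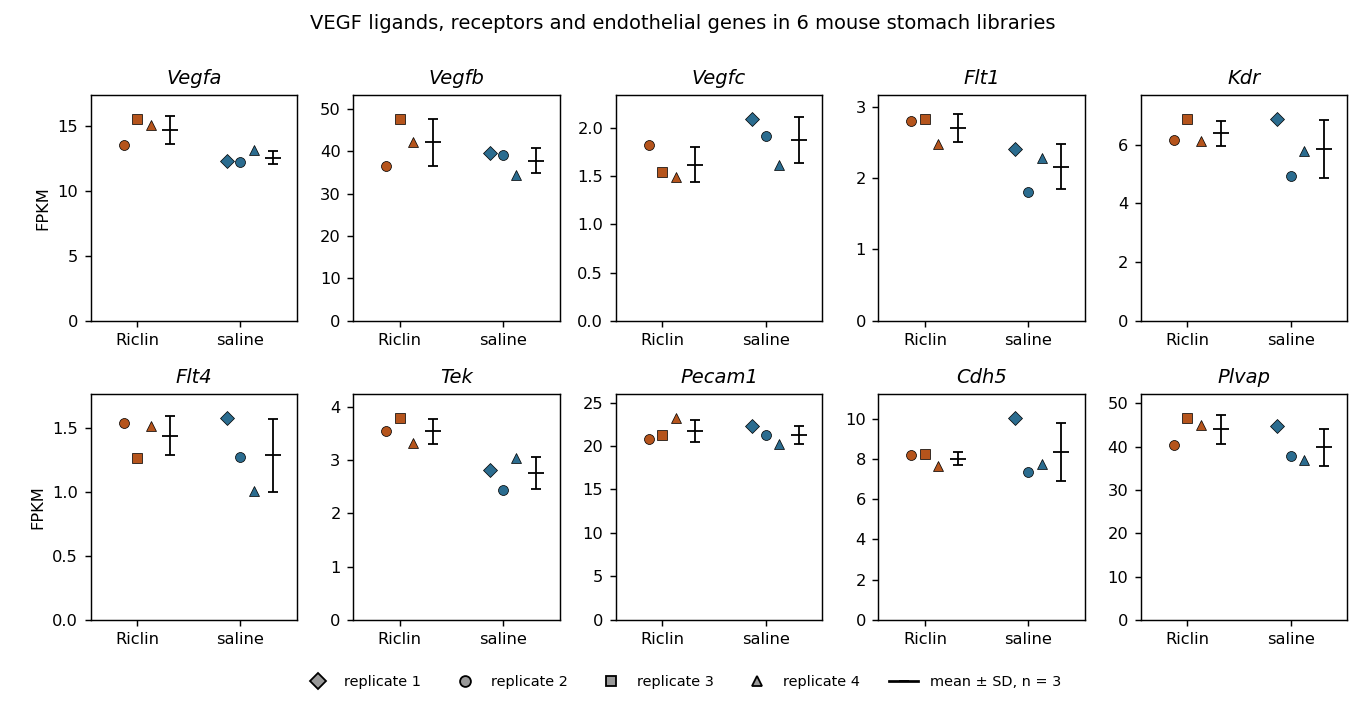
FPKM (vertical axes, each from 0) of the 10 genes in the 3 Riclin and 3 saline libraries, with symbols for the replicate numbers and bars for the mean ± SD. Riclin lies above saline with no overlap in Vegfa, Flt1 and Tek, and the groups overlap in the other 7.

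Of the ligands, Vegfa encodes the main VEGF of blood vessels and lies on chromosome 17 from 46016993 to 46032369 on the minus strand (GRCm38, protein-coding). It measured 13.5, 15.5 and 15.1 FPKM in Riclin replicates 2, 3 and 4, and 12.3, 12.2 and 13.2 FPKM in saline replicates 1, 2 and 4. The lowest Riclin library was thus close to the highest saline library. The means were 14.7 ± 1.07 FPKM in Riclin and 12.6 ± 0.525 FPKM in saline (SD, n = 3 each), and the log2 fold change on the log2(FPKM + 1) scale was 0.21 (SE 0.0976, 95% interval -0.017 to 0.44). With acinar genes removed the groups overlapped, at 15.3, 15.5 and 16.9 rescaled FPKM in Riclin and 12.9, 14.7 and 15.7 in saline, and the log2 fold change was 0.14. A gene-level value adds up all splice forms of Vegfa, which differ in how far the protein spreads from the cell.

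Parietal cells, the acid-secreting cells of the gastric gland, are among the epithelial sources of VEGF-A in the stomach. Their 10 listed markers summed to 4452, 5966 and 5648 FPKM in Riclin and 4911, 4273 and 3346 FPKM in saline. Of these markers, 9 had a log2 fold change above 0, where 61.3% of all tested genes did. By limma 0 of the markers passed the adjusted threshold, and their median was 0.31 against 0.04 over all genes tested. Kcnj16, a potassium channel subunit, averaged 81.2 FPKM in Riclin and 58.4 FPKM in saline with no overlap. The library highest in Vegfa, Riclin replicate 3, was also highest in the parietal sum and lowest in acinar transcripts. Saline replicate 4 went the other way, with the lowest parietal sum, 3346 FPKM, and the highest Vegfa of the saline libraries, 13.2 FPKM. The part of parietal cell content in the Vegfa values was not tested.

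Vegfb, whose product binds FLT1 and is abundant in tissues rich in mitochondria, lies on chromosome 19 from 6982473 to 6987651 on the minus strand. Its values of 36.6, 47.6 and 42.2 FPKM in Riclin overlapped the 39.7, 39.2 and 34.4 FPKM in saline, with a log2 fold change of 0.15 (95% interval -0.15 to 0.45). It was 0.070 with acinar genes removed, 0.058 without Riclin replicate 3, 0.084 without saline replicate 4 and 0.24 when Riclin replicate 2 was left out. Vegfc, the lymphatic growth factor, lies on chromosome 8 from 54077606 to 54187096 on the plus strand. It measured 1.83, 1.54 and 1.496 FPKM in Riclin and 2.09, 1.92 and 1.62 FPKM in saline, and only the lowest saline library fell inside the Riclin range. Its log2 fold change was -0.13 (95% interval -0.39 to 0.13). It was -0.19 with acinar genes removed, -0.079 without saline replicate 1 and -0.20 without saline replicate 4. Over the 15 alternatives in which Vegfc was tested, it ran from -0.22 to -0.058. Of the other ligands, Vegfd, a second lymphatic VEGF, averaged 1.58 ± 0.470 FPKM in Riclin and 1.92 ± 0.169 FPKM in saline (SD, n = 3 each). Pgf, placental growth factor and a ligand of FLT1, stayed under 1 FPKM in all libraries and was not tested.

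Among the VEGF receptors, Flt1 lies on chromosome 5 from 147561604 to 147726011 and Kdr on the same chromosome from 75932827 to 75978458, both on the minus strand. Flt1 measured 2.80, 2.83 and 2.48 FPKM in Riclin and 2.41, 1.81 and 2.28 FPKM in saline. The groups did not overlap, although Riclin replicate 4 and saline replicate 1 lay close together. The log2 fold change of Flt1 was 0.23 (SE 0.112, 95% interval -0.030 to 0.49), and 0.18 with acinar genes removed, where the groups again did not overlap. Without saline replicate 2, the library lowest in Flt1, it was 0.15. Flt1 gives rise to a membrane receptor and to a soluble form that traps ligand, which gene-level values do not separate.

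Kdr, the main signalling receptor for VEGF-A, measured 6.17, 6.86 and 6.11 FPKM in Riclin and 6.87, 4.92 and 5.79 FPKM in saline. Saline replicate 1 was level with the highest Riclin library, and saline replicate 2 was the lowest of the 6. Its log2 fold change was 0.11 (95% interval -0.17 to 0.40), and it was 0.048 with acinar genes removed, 0.013 without saline replicate 2, 0.069 without Riclin replicate 3 and 0.22 without saline replicate 1. Flt4, the receptor for VEGF-C, lies on chromosome 11 from 49609263 to 49652739 on the plus strand and measured 1.54, 1.27 and 1.51 FPKM in Riclin and 1.57, 1.27 and 1.01 FPKM in saline. Its log2 fold change of 0.0998 (95% interval -0.19 to 0.39) was 0.062 with acinar genes removed, 0.011 without saline replicate 4, 0.15 without Riclin replicate 3, 0.19 without saline replicate 1 and 0.24 with the libraries lowest in acinar transcripts, Riclin replicate 3 and saline replicate 1, left out. The coreceptors Nrp1 and Nrp2, which bind VEGF beside the kinase receptors, had log2 fold changes of -0.064 and -0.042. In each of the 3 tested genes of the VEGF system outside the 10 (Vegfd, Nrp1 and Nrp2) the groups overlapped and the log2 fold change was below 0, with a median of -0.064 against 0.04 over all tested genes. Summed with Pgf they gave 10.1 to 10.4 FPKM in Riclin and 10.9 to 11.1 FPKM in saline as deposited. With acinar genes removed these sums overlapped between groups, and the median of the 3 tested genes was -0.13 (-0.027 over all genes).

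Tek encodes TIE2, the kinase receptor for angiopoietins, which stabilises mature vessels. It lies on chromosome 4 from 94739289 to 94874976 on the plus strand. Tek measured 3.53, 3.78 and 3.31 FPKM in Riclin and 2.82, 2.43 and 3.03 FPKM in saline, so that every Riclin library lay above every saline library. The means were 3.54 ± 0.234 FPKM in Riclin and 2.76 ± 0.302 FPKM in saline (SD, n = 3 each). The log2 fold change was 0.27 (SE 0.104, 95% interval 0.032 to 0.52), the limma p was 0.0311 unadjusted and 0.791 adjusted, and it ranked 451 of 11738 genes by p. With acinar genes removed the log2 fold change was 0.22 and the groups did not overlap, and without Riclin replicate 3 it was 0.24. Of the partners of Tek, the ligand Angpt2 had a log2 fold change of -0.051, the related receptor Tie1 one of 0.14 and the phosphatase Ptprb, which dampens TIE2, one of 0.11, and in all 3 the groups overlapped. Their median was 0.11 as deposited, 0.050 with acinar genes removed and -0.041 without saline replicate 4. The activating ligand Angpt1 averaged 0.624 FPKM in Riclin and 0.732 FPKM in saline and was not tested.

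The sequences just upstream of Flt1, Tek and Vegfa are shown because these are the 3 genes with no overlap between groups, and that of Kdr because it is the main VEGF-A receptor, whose groups overlapped. Each is the 250 bases before an annotated start from RefSeq (GRCm38.p6), for Vegfa the more upstream of 2 starts, written 5′ to 3′ on the gene's own strand, with GGAA and its reverse complement TTCC, the core of binding sites for ETS transcription factors, in capitals. They lie at chr5:147726012-147726261 (minus strand) for Flt1, chr4:94739039-94739288 (plus strand) for Tek, chr17:46032378-46032627 (minus strand) for Vegfa and chr5:75978456-75978705 (minus strand) for Kdr.
Flt1: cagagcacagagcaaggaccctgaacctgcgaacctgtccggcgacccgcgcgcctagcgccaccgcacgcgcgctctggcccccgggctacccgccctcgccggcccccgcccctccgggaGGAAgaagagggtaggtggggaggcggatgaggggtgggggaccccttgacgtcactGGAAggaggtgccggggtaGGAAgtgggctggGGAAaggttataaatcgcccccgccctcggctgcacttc
Tek: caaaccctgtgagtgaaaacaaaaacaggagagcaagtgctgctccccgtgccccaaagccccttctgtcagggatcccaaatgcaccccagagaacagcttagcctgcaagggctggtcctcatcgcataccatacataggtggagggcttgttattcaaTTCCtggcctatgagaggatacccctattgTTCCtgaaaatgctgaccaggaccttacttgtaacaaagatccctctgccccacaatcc
Vegfa: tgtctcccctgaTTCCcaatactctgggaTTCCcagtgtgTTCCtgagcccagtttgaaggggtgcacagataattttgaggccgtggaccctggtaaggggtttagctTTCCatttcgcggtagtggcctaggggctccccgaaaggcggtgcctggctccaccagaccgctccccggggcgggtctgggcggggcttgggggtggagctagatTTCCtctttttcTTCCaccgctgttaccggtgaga
Kdr: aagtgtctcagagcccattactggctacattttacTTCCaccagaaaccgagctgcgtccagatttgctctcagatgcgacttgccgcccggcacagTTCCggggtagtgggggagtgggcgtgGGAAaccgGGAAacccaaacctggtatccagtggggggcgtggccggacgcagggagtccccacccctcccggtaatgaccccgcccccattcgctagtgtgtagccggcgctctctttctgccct

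The core GGAA or TTCC occurred 4 times before Flt1, 2 times before Tek, 6 times before Vegfa and 4 times before Kdr. The window before the other annotated start of Vegfa, at chr17:46025164-46025413, held 2 copies and 1 GC box. At least 1 copy was present in 93.4% of the 32851 promoter windows of the same length, and at least 4 copies in 33.4%. The GC box GGGCGG or its reverse complement CCGCCC, bound by SP1-type factors, occurred 3 times before Flt1, 2 times before Vegfa and 2 times before Kdr, with no copy in the Tek window, and 32.7% of all windows held at least 1. No copy of one motif overlapped a copy of the other in these windows.

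Pecam1, Cdh5 and Plvap mark the vessel lining itself. Pecam1, an adhesion protein of endothelial junctions, platelets and some leukocytes, lies on chromosome 11 from 106654217 to 106750628 on the minus strand. It measured 20.8, 21.3 and 23.2 FPKM in Riclin and 22.3, 21.3 and 20.2 FPKM in saline, with full overlap. Its log2 fold change was 0.032 (95% interval -0.19 to 0.26), which corresponds to a ratio between 0.874 and 1.20. Cdh5, the VE-cadherin of endothelial junctions, lies on chromosome 8 from 104101625 to 104144511 on the plus strand. It measured 8.17, 8.23 and 7.62 FPKM in Riclin and 10.0, 7.32 and 7.72 FPKM in saline, where saline replicate 1 stood above the other 5. The log2 fold change of Cdh5 was -0.044 (95% interval -0.33 to 0.25), -0.12 with acinar genes removed and 0.080 without saline replicate 1. Plvap, which forms the diaphragms of fenestrated capillaries, lies on chromosome 8 from 71497765 to 71511752 on the minus strand. It measured 40.3, 46.5 and 45.1 FPKM in Riclin and 44.7, 37.8 and 37.0 FPKM in saline, with a log2 fold change of 0.14 (95% interval -0.14 to 0.42), 0.064 with acinar genes removed, 0.093 without saline replicate 4 and 0.23 without saline replicate 1.

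**Figure D2:**
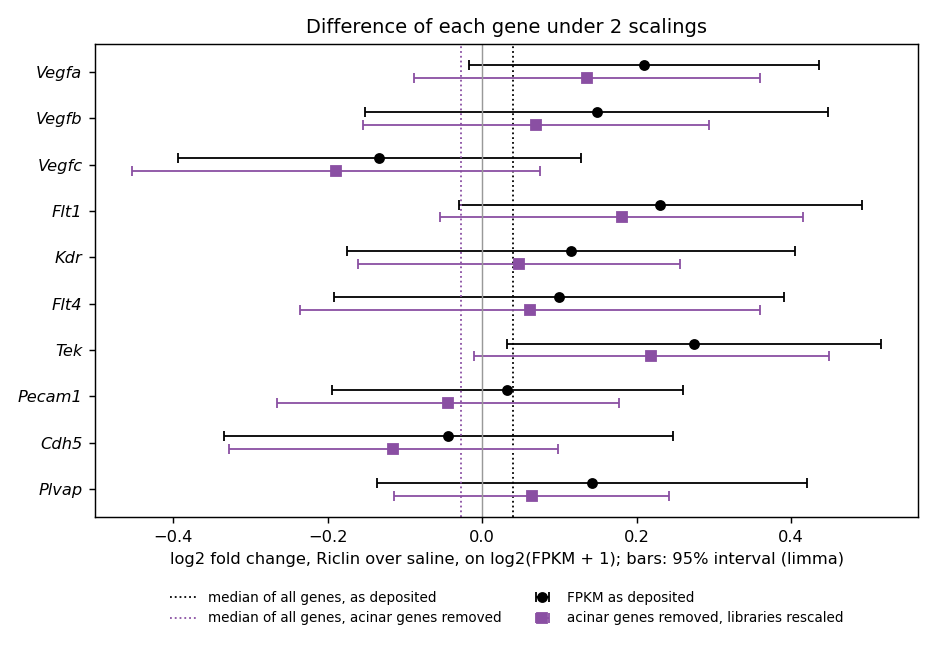
Log2 fold change of Riclin over saline (horizontal axis) for the 10 genes, with 95% intervals from limma, for FPKM as deposited (circles) and after removal of acinar genes and rescaling (squares). Dotted lines give the median of all genes under each scaling, 0.04 and -0.027, and all intervals cross 0 but that of Tek as deposited.

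Over the 10 genes 8 had a log2 fold change above 0, with a median of 0.13, where 61.3% of all tested genes did and their median was 0.04. The groups did not overlap in 3 of the 10, each with Riclin higher, where 11.2% of all tested genes had no overlap 8.14% with Riclin higher and 3.02% with Riclin lower. With acinar genes removed the median over all genes moved to -0.027, and 2 of the 10, Flt1 and Tek, showed no overlap, where 14% of all genes did, 4.98% with Riclin higher. The balance of all genes also turned with the scaling. As deposited, 693 genes had an unadjusted p under 0.05, of which 478 were higher and 215 lower in Riclin. With acinar genes removed 965 genes did, 307 higher and 658 lower. With median-of-ratios scaling 930 did, 444 higher and 486 lower, and with upper-quartile scaling 902 did, 480 higher and 422 lower. The members were chosen as a set with earlier results known, and most are made by the same cells, so these counts are a description.

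Ratios between genes of 1 library do not depend on how the library was scaled, and 9 were compared by exact two-sided permutation tests, for which 0.1 is the smallest p that 3 against 3 libraries can give. Flt1 stood at 0.454, 0.412 and 0.406 of the Kdr level in Riclin and at 0.350, 0.368 and 0.394 in saline. This was the only ratio of the 9 without overlap between groups, a 1.14-fold difference with an exact permutation p of 0.1, or 0.6 adjusted over the 9 ratios. Tek stood at 0.169, 0.178 and 0.143 of the Pecam1 level in Riclin and at 0.126, 0.115 and 0.150 in saline, with overlap (exact permutation p = 0.2, adjusted p = 0.6). Vegfc stood at 0.135, 0.0993 and 0.0992 of the Vegfa level in Riclin and at 0.170, 0.157 and 0.123 in saline, and saline replicate 4 lay inside the Riclin range (exact permutation p = 0.2, adjusted p = 0.6).

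The remaining 6 ratios had exact permutation p-values of 0.3 to 0.9. Vegfa was 2.18, 2.26 and 2.47 times the Kdr level in Riclin and 1.79, 2.48 and 2.27 times in saline. The difference of the log2 ratio, 0.090, turned to -0.046 without saline replicate 1. Plvap was 1.93 to 2.19 times the Pecam1 level in Riclin and 1.78 to 2.002 times in saline.

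**Figure D3:**
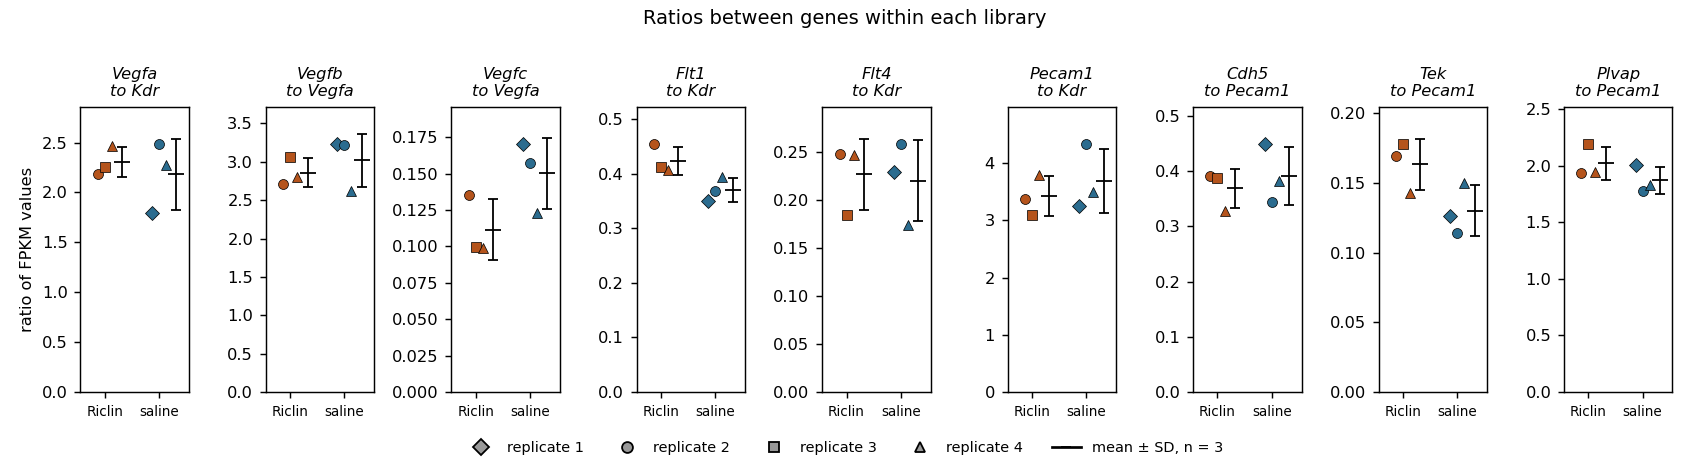
Ratios of FPKM values between pairs of the 10 genes (vertical axes, each from 0) in the 3 Riclin and 3 saline libraries, with bars for the mean ± SD. The groups are separate in the Flt1 to Kdr ratio, at 0.406 to 0.454 in Riclin and 0.350 to 0.394 in saline, and overlap in the other 8.

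Other genes of the vessel wall were compared as lists. Of 30 further endothelial genes 27 were tested, 19 with a log2 fold change above 0 and 8 below, with a median of 0.048, and 0 passed the adjusted threshold. Over all tested genes 61.3% were above 0, with a median of 0.04. Adgrl4, an adhesion receptor of angiogenic endothelium, averaged 3.49 ± 0.117 FPKM in Riclin and 2.85 ± 0.199 FPKM in saline with no overlap (SD, n = 3 each). The capillary sialomucin Emcn and the adhesion molecule Icam2 had log2 fold changes of 0.26 and 0.29, and the apelin receptor Aplnr one of -0.24, all with overlap. The summed level of the 30 genes was 151 to 163 FPKM in Riclin and 136 to 164 FPKM in saline. Sox18, an endothelial transcription factor, averaged 6.63 FPKM in Riclin and 5.92 FPKM in saline, and the secreted factor Egfl7 averaged 15.5 FPKM in Riclin and 13.5 FPKM in saline, again with no overlap. Adgrl4, Sox18 and Egfl7 were the 3 of 27 without overlap, where 8.14% of all tested genes had none with Riclin higher. With acinar genes removed and libraries rescaled, the groups overlapped in each of these 3 genes. The median of the list was -0.0034 with acinar genes removed (-0.027 over all genes), -0.031 without saline replicate 4 and 0.14 without saline replicate 1.

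Of 7 lymphatic genes 4 were tested and the lineage factor Prox1 was not. Pdpn, a membrane glycoprotein of lymphatic endothelium that fibroblasts and squamous cells also make, measured 5.74, 6.10 and 8.34 FPKM in Riclin and 4.78, 5.45 and 3.52 FPKM in saline, with no overlap and a limma adjusted p of 0.791. With acinar genes removed and libraries rescaled, the groups of Pdpn overlapped. The other 3 tested genes leaned the other way, the lymphatic chemokine Ccl21a at a log2 fold change of -0.33, Mmrn1 at -0.19 and Lyve1 at -0.10, each with overlap. The median of the 4 was -0.14 as deposited, -0.21 with acinar genes removed and -0.072 without Riclin replicate 3. Of the mural cell genes, Rgs5, a G protein regulator of pericytes, measured 54.3, 49.5 and 45.8 FPKM in Riclin and 62.6, 55.2 and 59.4 FPKM in saline, every Riclin library lying below every saline library. The log2 fold change of Rgs5 was -0.24 (SE 0.115, limma adjusted p 0.823). The pericyte receptor Pdgfrb was at 0.16, the proteoglycan Cspg4 at -0.19 and the channel subunit Abcc9 at 0.15, and the median over 7 tested genes was 0.023 as deposited, -0.044 with acinar genes removed and from -0.021 without saline replicate 4 to 0.091 without saline replicate 1. All 6 smooth muscle genes had log2 fold changes below 0, where 61.3% of all tested genes were above 0. Of the 6, 0 passed. Their median of -0.13 was -0.21 with acinar genes removed, -0.24 without saline replicate 4 and -0.075 without saline replicate 2. Acta2, smooth muscle actin, averaged 312 ± 3.22 FPKM in Riclin and 341 ± 12.9 FPKM in saline with no overlap (SD, n = 3 each). Myh11, smooth muscle myosin, had no overlap either as deposited, with a log2 fold change of -0.13, but its groups overlapped with acinar genes removed. Des and Actg2 were at -0.27 and -0.18 with overlap.

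Hypoxia is a known inducer of Vegfa, and genes of the hypoxia response were listed for that reason. Of 18 such genes, all tested, 15 had a log2 fold change above 0 and 3 below, with a median of 0.091, and 0 passed. Among all tested genes 61.3% were above 0, and their median was 0.04. The median of the 18 was 0.012 with acinar genes removed, where that of all genes was -0.027. It was 0.017 without saline replicate 4, 0.040 if Riclin replicate 3 was left out, and 0.17 without either Riclin replicate 2 or saline replicate 1. Car9, a carbonic anhydrase that is induced by hypoxia and also made by gastric epithelium, measured 80.7, 95.3 and 99.0 FPKM in Riclin and 79.6, 72.9 and 55.3 FPKM in saline. The 2 libraries at the border, Riclin replicate 2 and saline replicate 1, were close, and the limma adjusted p was 0.806. The collagen hydroxylase P4ha1 averaged 7.30 FPKM in Riclin and 5.93 FPKM in saline with no overlap as deposited. Its groups overlapped with acinar genes removed and libraries rescaled. The glycolytic enzyme Eno1 had a log2 fold change of 0.25 and Ndrg1 one of -0.22. The oxygen-regulated factor Hif1a itself had a log2 fold change of 0.0018.

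Other angiogenic factors and inhibitors numbered 15, of which 10 were tested, 7 with a log2 fold change above 0 (61.3% over all tested genes). Their median of 0.067 was 0.0055 with acinar genes removed, 0.026 without saline replicate 4 and 0.17 without saline replicate 2. Ang, the secreted ribonuclease angiogenin, had the largest difference of that list, at 12.4, 9.46 and 8.64 FPKM in Riclin and 18.8, 22.1 and 19.2 FPKM in saline, every Riclin library lying below every saline library. Its log2 fold change was -0.92 (SE 0.143) with a limma p of 2.33e-04 unadjusted and 0.346 adjusted, so that it did not pass, and its reads may be split among close relatives in the ribonuclease family. Pdgfa, a growth factor for mesenchymal cells, was at 0.21, the collagen Col18a1, whose fragment endostatin limits vessel growth, at 0.22, and the guidance ligand Sema3f at 0.24.

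Blood itself also holds RNA. Red cell genes summed to 88.6, 312 and 140 FPKM in Riclin and 212, 198 and 285 FPKM in saline, with a log2 fold change below 0 in 4 of 4 tested genes and 0 passing. Over all tested genes 61.3% were above 0. Of the 5 platelet genes only Pf4 passed the expression filter. Macrophages can also make Flt1 and Pecam1, and macrophage genes summed to 135, 172 and 219 FPKM in Riclin and 139, 158 and 170 FPKM in saline, and adipocyte genes to 103, 123 and 76.4 FPKM in Riclin and 154, 115 and 104 FPKM in saline. The part of these cells in the values of the 10 genes was not tested.

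**Figure D4:**
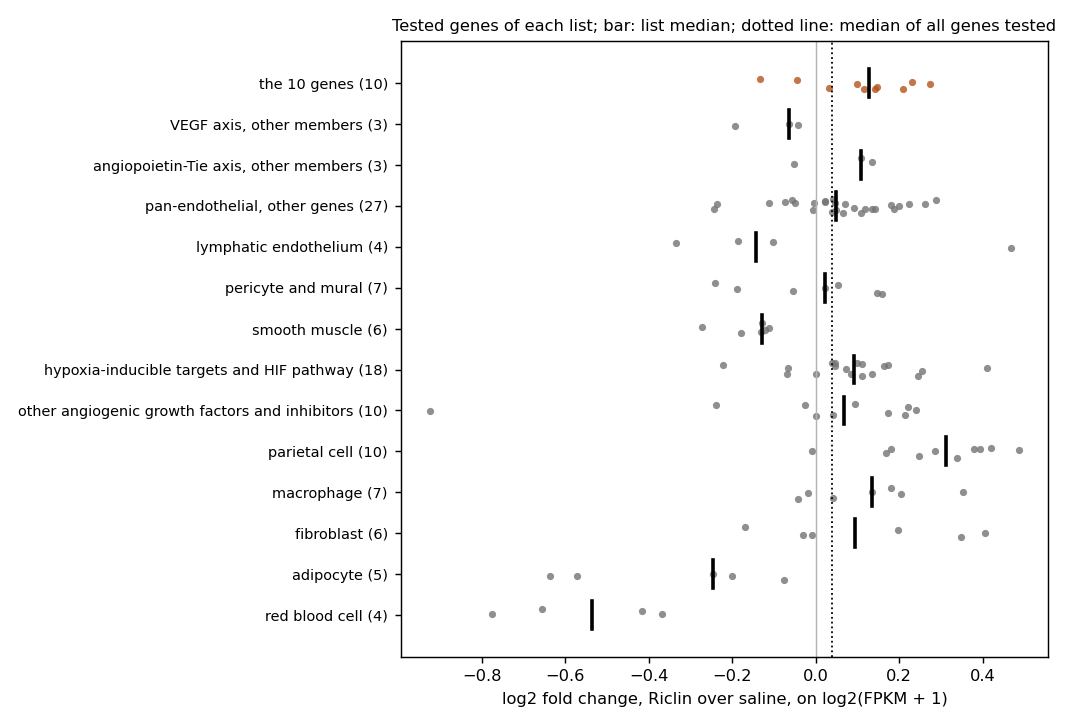
Log2 fold change of Riclin over saline (horizontal axis) for each tested gene of the lists, with the number tested in brackets, bars for list medians and a dotted line for the median of all genes at 0.04. The 10 genes lie between -0.13 and 0.27, and Ang is the point at -0.92.

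The genes whose profile over the 6 libraries was most like that of Vegfa, by Pearson r of log2(FPKM + 1) among 11329 genes, were the proton pump subunit Atp6v0c (r = 0.990, Spearman rho = 1), the RNA-binding protein Khsrp (0.985, rho = 1), Cnot2 (0.985, rho = 1) and Trmt1l (0.984, rho = 1). Without Riclin replicates 3 and 4, the libraries farthest from the median of Vegfa, r was 0.938 for Atp6v0c, 0.937 for Khsrp, 0.902 for Cnot2 and 0.886 for Trmt1l. For Kdr they were Hnrnpul2 (r = 0.998, rho = 0.943), Trappc9 (0.995, rho = 0.943), Pacs2 (0.993, rho = 1) and Fam120a (0.993, rho = 0.943). Without saline replicates 1 and 2, the farthest for Kdr, r was 0.998 for Hnrnpul2, 0.9998 for Trappc9, 0.995 for Pacs2 and 0.980 for Fam120a. The values are picked as the highest of many over 6 libraries that share scaling and 2 groups, and are given as a description. None of the 8 is an endothelial gene of the lists.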

How the data were processed

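Total RNA from mouse stomach was extracted with TRIzol and sequenced by OE Biotech, per the labels' protocols. Build mm10 and the aligner Bowtie2 are named, per the submitters' processing notes. Counting tool, annotation and strandedness were not given in the sources used here. FPKM values for 23550 gene symbols in 6 libraries were deposited by the authors in 1 table. No exon of the 10 genes overlaps an exon of another gene in the annotation used for positions (GENCODE M21 on GRCm38, the assembly mm10 names, in which 19635 of the symbols were found).

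The 11738 genes that reached 1 FPKM in 3 or more libraries were tested on log2(FPKM + 1), which understates fold changes of low genes. Riclin and saline were compared by limma 3.58.1 (R 4.3.3) with a trend in the variance prior and no covariate, two-sided, with Benjamini-Hochberg adjustment over all tested genes. Intervals are 95% intervals of that fit. Groups come from the treatment label and replicate numbers from the sample titles. Whole reads behind the FPKM values were recovered for 23550 of 23550 genes (relative deviation from whole numbers at most 1.86e-09). A gene's reads can be too low by a common factor of all libraries. They served for depth, counting errors, which cover counting only, acinar shares and limma's voom. The fit and the recovery were tested on simulated data. Alternatives were a pseudocount of 0.1, other filters and scalings, removal of acinar genes, a robust prior, a replicate block, voom and leaving out libraries. The genes named are the 10 members, up to 4 of each list with the smallest p, all of the VEGF and angiopoietin lists, and the 4 most similar profiles to Vegfa and Kdr. Prox1, Hif1a, Sox18 and Egfl7 were named after their values were seen. The members and lists were chosen with earlier results of these data known. Of the 10 genes 7 had an upstream sequence in the RefSeq table used.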

Additional observations from a re-analysis of the deposited data

How the results depend on the processing

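None of the 10 genes passed an adjusted p of 0.05 in any of the 16 alternatives in which it was tested, with limma adjusted p-values from 0.609 to 0.999. At the filter of 5 FPKM, Vegfc, Flt1, Flt4 and Tek were not tested. Over all genes the count of 0 became 2 with a robust prior and 0 to 1 when single libraries were left out (1 without saline replicate 2). The count of the 10 genes with an unadjusted p under 0.05, 1 in all, was 2 with no filter and with voom, 0 at the filter of 5 FPKM, with acinar genes removed, with the replicate block and without both libraries low in acinar genes, and 0 to 1 when single libraries were left out, with 1 without Riclin replicate 4 or saline replicate 4 and 0 without any of the other 4. Among all tested genes the share was 5.9% in the main fit, 5.2% with no filter and 6.28% with voom. It was 5.44% at the filter of 5 FPKM, 8.24% with acinar genes removed and 5.52% with the replicate block. Of 11738 genes, 551 to 835 had such a p when single libraries were left out, and 768 without both low-acinar libraries. The count with no overlap between groups, 3 in all, was 6 without both low-acinar libraries (37.7% of all genes then) and 3 to 6 when single libraries were left out (19.8 to 26.6% of all genes), with 6 without Riclin replicate 2 and 5 without saline replicate 1. The log2 fold change of Pecam1 turned to -0.013 with median-of-ratios scaling, -0.0024 with upper-quartile scaling and -0.044 with acinar genes removed, and lay between -0.012 and 0.067 when single libraries were left out. That of Cdh5 turned to 0.062 with the replicate block and without both low-acinar libraries, and lay between -0.12 and 0.080 when single libraries were left out. Only numbers 2 and 4 occur in both groups, so the block and that removal take the log2 fold change from the same libraries and give 1 estimate. The Riclin minus saline difference in the log2 ratio of Flt4 to Kdr lay between -0.11 and 0.19 when single libraries were left out, that of Cdh5 to Pecam1 between -0.17 and 0.020, that of Pecam1 to Kdr between -0.19 and 0.019 and that of Vegfa to Kdr between -0.046 and 0.19, and the last was -0.033 without both low-acinar libraries. The cause of these changes was not tested. Libraries numbered 2 and 4 in both groups deviated with correlations of 0.222 and 0.0109, only 2 numbers are shared, and nothing in the labels says that a number marks a pair, so the samples were taken to share only a number. Depth limits Vegfc and Flt4 most, with as few as 94 and 182 reads in a library.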
